A study of Mus musculus with 16 samples.

Results

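The genes described here encode the Hox partners Cdx1, Cdx2, Cdx4, Evx1, Evx2, Meis1, Meis2, Pbx2 and Pbx3, 9 of the 22367 protein-coding genes annotated on mm9. Peaks of total Jarid2 and of Jarid2 dimethylated at K116 (Jarid2-K116me2) were assigned to a gene when they overlapped it or lay within 5 kb of it. Of the 4992 peaks listed for Jarid2 this gave 15, and of the 4502 listed for Jarid2-K116me2 it gave 19. Both lists came from E14, a line of mouse ESC kept in serum with LIF, with 1 library per antibody, so the values of these peaks have no replicate check. H3K27me3 peaks were listed for 12 libraries of other ESC, all derived from Jarid2-/- cells: the knockout itself (KO), the same cells rescued with a BAC carrying Jarid2 (WT) and the same cells rescued with a BAC carrying Jarid2 K116A (K116A), in which the methylated lysine is replaced. Each line was profiled as ESC and as embryoid bodies (EB) on day 8 of differentiation in hanging drops, with 2 replicates per group. The WT and K116A libraries therefore report integrated transgenes in a knockout background. An EB holds many cell types, so fewer cells with the mark and less of the mark per cell cannot be told apart.

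Cdx proteins are caudal-type homeodomain factors that act downstream of Wnt, Fgf and retinoic acid signals and activate posterior Hox genes. Evx1 and Evx2 are the even-skipped homologues that lie beside the 5′ ends of the HoxA and HoxD clusters. Meis and Pbx proteins are homeodomain proteins of the TALE class, which bind DNA together with Hox proteins as cofactors. Jarid2 is a component of PRC2, the complex that methylates H3K27 and keeps such developmental genes silent in ESC, and PRC2 also methylates Jarid2 itself.

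The 250 bases upstream of the start of 4 of the genes are shown, because Jarid2 peaks differed in whether they reached this stretch. They were read from the mm9 genome, on the strand of the gene, with CpG dinucleotides in capitals. At Cdx2 and Meis1 the whole stretch lay under a Jarid2 peak with the highest score of the gene. At Cdx4 the Jarid2 peak began only 22 bases upstream of the start, and at Pbx3 it began 282 bases downstream of it.
Cdx2, chr5:148118847-148119096, minus strand: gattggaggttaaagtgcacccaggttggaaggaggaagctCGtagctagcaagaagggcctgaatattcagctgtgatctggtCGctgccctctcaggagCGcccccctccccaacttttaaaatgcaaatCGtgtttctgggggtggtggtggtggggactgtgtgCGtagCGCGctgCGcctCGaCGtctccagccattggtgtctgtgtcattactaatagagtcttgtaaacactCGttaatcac
Cdx4, chrX:100516487-100516736, plus strand: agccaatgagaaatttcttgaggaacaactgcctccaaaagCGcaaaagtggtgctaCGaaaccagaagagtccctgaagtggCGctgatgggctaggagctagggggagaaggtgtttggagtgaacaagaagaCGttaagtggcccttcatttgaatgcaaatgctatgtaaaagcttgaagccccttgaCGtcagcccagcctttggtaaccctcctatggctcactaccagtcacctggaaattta
Meis1, chr11:18918962-18919211, minus strand: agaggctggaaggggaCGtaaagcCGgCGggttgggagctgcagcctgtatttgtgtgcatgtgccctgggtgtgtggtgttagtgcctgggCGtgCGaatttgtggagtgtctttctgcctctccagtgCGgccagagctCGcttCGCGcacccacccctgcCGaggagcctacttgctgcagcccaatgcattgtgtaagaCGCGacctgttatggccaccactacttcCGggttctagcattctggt
Pbx3, chr2:34228661-34228910, minus strand: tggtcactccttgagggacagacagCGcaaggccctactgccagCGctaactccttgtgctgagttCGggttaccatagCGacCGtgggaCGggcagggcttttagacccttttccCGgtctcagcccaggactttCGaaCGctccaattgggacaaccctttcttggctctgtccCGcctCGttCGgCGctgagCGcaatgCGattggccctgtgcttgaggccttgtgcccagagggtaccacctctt
The stretches held 11 CpG at Cdx2, 5 at Cdx4, 13 at Meis1 and 15 at Pbx3, against a median of 8 over all 22367 protein-coding genes. Cdx4 thus had the CpG-poorest of the stretches shown, with more CpG than 36.1% of all promoters of this length. Cdx1 had the CpG-richest stretch of the 9 genes, with 30 CpG and 73.2% G+C, more CpG than 93.4% of all promoters.

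Jarid2 and Jarid2-K116me2 peaks were found at 8 of the 9 genes, and Pbx2 had neither. The share among all protein-coding genes was 18.1% for Jarid2 (4052 of 22367) and 16.0% for Jarid2-K116me2 (3579 of 22367). All 5 of the Cdx and Evx genes and 3 of the 4 Meis and Pbx genes had both. Pbx2 (chr17:34728211-34734345), a Pbx protein made in many adult tissues, also had no H3K27me3 peak within 5 kb of its start in any of the 12 libraries. The result was the same with distances of 0, 1 and 10 kb, with a score of at least 200 and with protein-coding transcripts only.

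**Figure D1:**
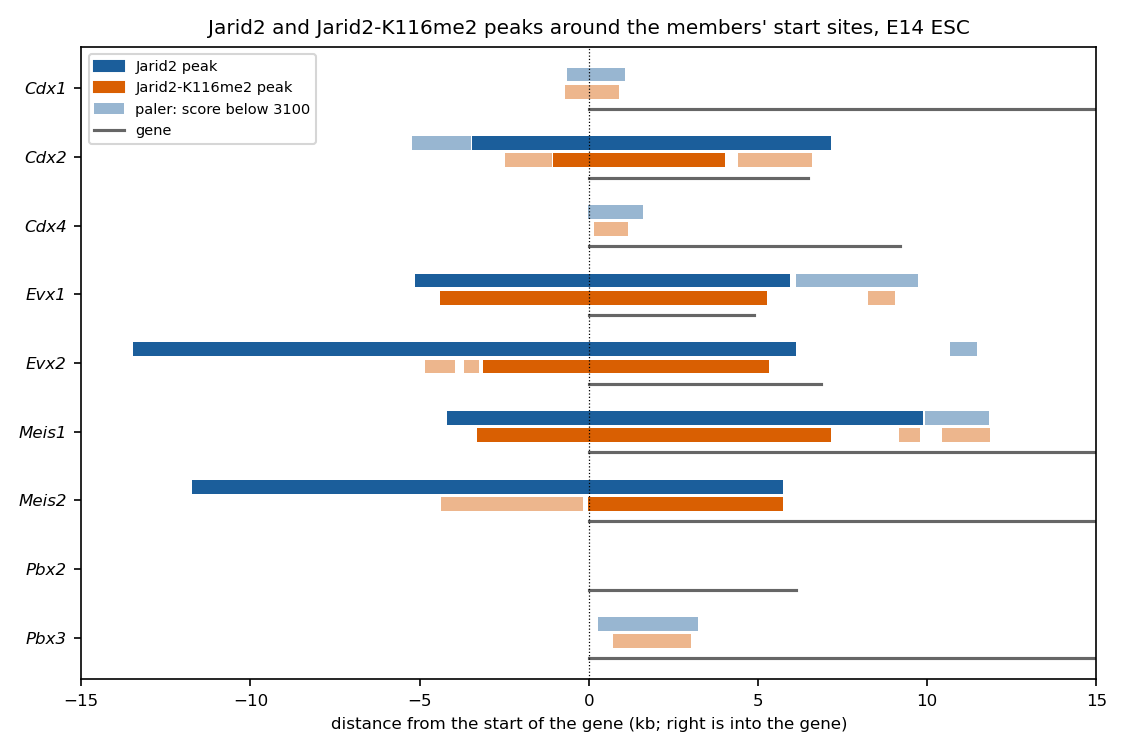
Jarid2 (blue) and Jarid2-K116me2 (orange) peaks of the 9 genes against the distance from the start of the gene in kb, with the gene as a grey line and pale bars for peaks that scored below 3100. Long peaks cover the starts of Cdx2, Evx1, Evx2, Meis1 and Meis2, short ones lie at Cdx1, Cdx4 and Pbx3, and Pbx2 has none. Peaks at the 3′ ends of Meis1 and Meis2 lie beyond the axis.

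The genes fell into those with long peaks that scored 3100 and those with a single short peak. The score is −10 times the log10 of the p-value of MACS and piles up at 3100, a value that 14.4% of all Jarid2 peaks and 20.1% of all Jarid2-K116me2 peaks had. Cdx2, Evx1, Evx2, Meis1 and Meis2 reached 3100 with both antibodies. Pbx3 followed, scoring 2151 with Jarid2 and 2672 with Jarid2-K116me2. Cdx4 scored 329 and 255, and Cdx1 scored 261 and 407. At Cdx1 and Cdx4 both scores were thus below the medians of all peaks, 503 for Jarid2 and 707 for Jarid2-K116me2. With 1 library per antibody, the order of Cdx1 and Cdx4, which was opposite for the 2 antibodies, could not be tested.

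Among the Cdx genes, Cdx2, which drives trophectoderm and posterior development, had the longest domain. Its main Jarid2 peak (chr5:148111681-148122307) covered the whole gene over 10.6 kb, and its Jarid2-K116me2 peak of score 3100 covered 5.08 kb around the start. Cdx4, the X-linked member, had a Jarid2 peak of 1.62 kb (chrX:100516715-100518334) and a Jarid2-K116me2 peak of 991 bp that lay wholly inside it, with midpoints in an intron. Cdx1 had a Jarid2 peak of 1.72 kb (chr18:61194786-61196508) centred in a coding exon, and 89.9% of its bases were shared with the Jarid2-K116me2 peak. The lengths of the 3 Cdx genes therefore spanned 1.62 to 12.4 kb for Jarid2 and 0.991 to 8.67 kb for Jarid2-K116me2.

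At the Evx genes, the domains extended beyond the gene, on both sides at Evx1 and upstream of the start at Evx2. Evx1, 4.88 kb long, lay under a Jarid2 peak of 11.1 kb (chr6:52258359-52269436) and a Jarid2-K116me2 peak of 9.65 kb, all of which fell within it. Evx2, except for its 3′ end, lay under a Jarid2 peak of 19.6 kb (chr2:74491785-74511378) that also covered the start of Hoxd13, 8.45 kb away. Over the same stretch Jarid2-K116me2 was listed as 5 separate peaks. These overlapped 83.1% of the bases of the Evx2 Jarid2 peaks.

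Meis1 and Meis2 had the longest domains of the 9 genes, 25.9 and 26.5 kb of Jarid2 peaks and 21.0 and 14.1 kb of assigned Jarid2-K116me2 peaks. At Meis2, further Jarid2-K116me2 peaks under the Jarid2 peaks lay over 5 kb from the gene and were not counted. Both genes carried peaks of score 3100 at each end. At Meis1, a Jarid2 peak of 14.1 kb (chr11:18909076-18923140) covered the start, and another of 8.42 kb (chr11:18769307-18777721) lay past the 3′ end, centred in an intron of the non-coding gene 8430419K02Rik. At Meis2, a Jarid2 peak of 17.5 kb (chr2:115885842-115903299) covered the start and that of the non-coding gene G630016G05Rik, and another of 9.06 kb (chr2:115678190-115687248) lay past the 3′ end. The Jarid2-K116me2 peak within 5 kb of the 3′ end of Meis2 scored 1729 and was 4.15 kb long. Pbx3, in contrast, had a single peak of 2.95 kb with Jarid2 (chr2:34225428-34228378) and of 2.29 kb with Jarid2-K116me2. Its midpoint lay 131 bp from another annotated start of Pbx3 with Jarid2 and 23 bp from one with Jarid2-K116me2.

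**Figure D2:**
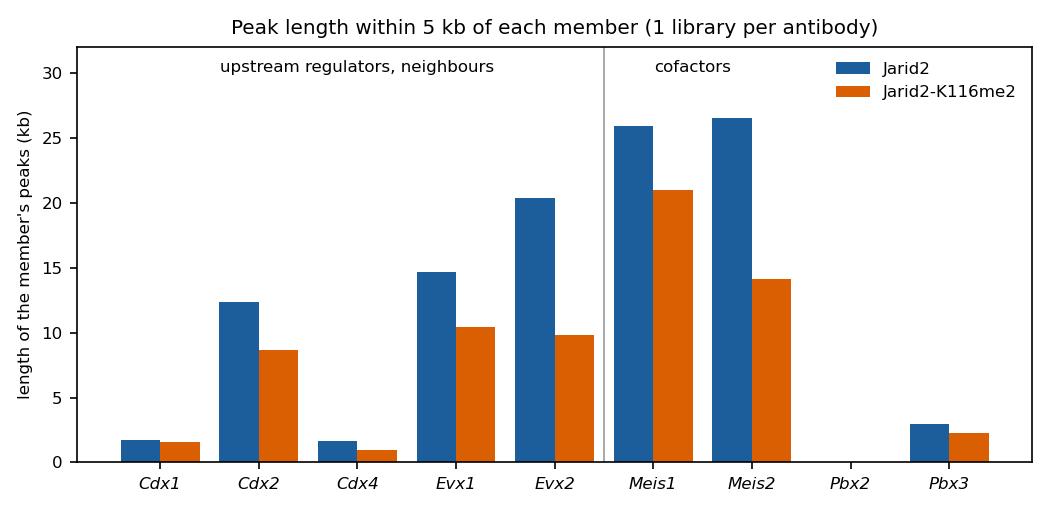
Summed length in kb of the Jarid2 (blue) and Jarid2-K116me2 (orange) peaks of each gene, 1 library per antibody. Jarid2-K116me2 peaks over 5 kb from the gene are left out, also where a counted Jarid2 peak covers them (Evx2 and Meis2). The lengths range from 1.62 to 26.5 kb with Jarid2, and the Jarid2-K116me2 length is the smaller of the pair at all 8 genes with peaks.

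The summed length of the assigned Jarid2-K116me2 peaks was below that of the Jarid2 peaks at all 8 genes, at 68.8 against 106 kb in all. The whole lists differed in the same way, with median widths of 1684 and 1877 bp, and by the read totals of the study the Jarid2-K116me2 library was the shallower of the pair. The part of depth in the widths was not tested. The sums also depend on the 5 kb rule, which counted a long Jarid2 peak whole but left out Jarid2-K116me2 peaks under it further away. At Evx2, 9.79 kb of Jarid2-K116me2 peaks were counted, while 17.0 kb of the Jarid2 peaks were overlapped by Jarid2-K116me2. At Meis2 these lengths were 14.1 and 22.7 kb. A Jarid2 peak lay under each of the 19 Jarid2-K116me2 peaks. In the other direction, 13 of 15 shared at least 1 bp with a Jarid2-K116me2 peak, and 8 did so over at least 50% of each peak. All 7 Jarid2 peaks of the cofactors were among the 13, as were 6 of the 8 of the Cdx and Evx genes. The exceptions were a peak upstream of Cdx2 (score 206, 1.74 kb) and a peak downstream of Evx2 (score 80.1, 807 bp). Both were intergenic and weak, with scores above those of 29.4% and 6.86% of all Jarid2 peaks. The Cdx2 peak, from −5.23 to −3.495 kb of the start, lay between Jarid2 peaks of score 3100 (from −3.461 kb) and 3140 (up to −5.262 kb). The paper holds differences in depth and background estimates to be the most likely source of such peaks, which was not tested here. The middle 250 bases of the 2 peaks on the plus strand are shown, with CpG in capitals, because no Jarid2-K116me2 peak was listed over them.
Cdx2 upstream peak, chr5:148123083-148123332: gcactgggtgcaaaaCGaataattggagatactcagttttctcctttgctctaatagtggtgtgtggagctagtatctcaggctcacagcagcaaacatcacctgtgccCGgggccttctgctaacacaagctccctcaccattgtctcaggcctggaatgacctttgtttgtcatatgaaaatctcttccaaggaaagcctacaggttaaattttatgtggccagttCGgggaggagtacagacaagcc
Evx2 downstream peak, chr2:74486725-74486974: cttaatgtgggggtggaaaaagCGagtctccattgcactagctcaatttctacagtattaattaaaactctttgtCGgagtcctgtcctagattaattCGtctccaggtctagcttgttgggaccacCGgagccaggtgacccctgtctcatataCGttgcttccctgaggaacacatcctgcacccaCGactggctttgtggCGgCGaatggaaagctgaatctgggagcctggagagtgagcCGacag
The whole Cdx2 upstream peak had an observed to expected CpG ratio of 0.151, the lowest of the 15, and the Evx2 peak had 0.547. The highest was that of Pbx3, 0.885, and the median of the 15 peaks was 0.505, against 0.574 for all Jarid2 peaks.

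H3K27me3 was then examined over a window of 10 kb, 5 kb on each side of the start of the gene, as the percent of bases inside listed peaks. Libraries differed in how much was called: the lists covered 2.31 to 29.2 Mb in ESC and 19.6 to 55.0 Mb in EB. Replicate 1 had the shorter list in every group, and replicate 1 of ESC WT stood apart with 1478 peaks. The Pearson correlation of replicates over the 6747 genes tested was 0.56 to 0.87 in ESC and 0.91 to 0.93 in EB. The 8 housekeeping genes examined were not covered in any library. Read numbers over Jarid2 are not part of peak lists, so the deletion could not be checked from them.

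**Figure D3:**
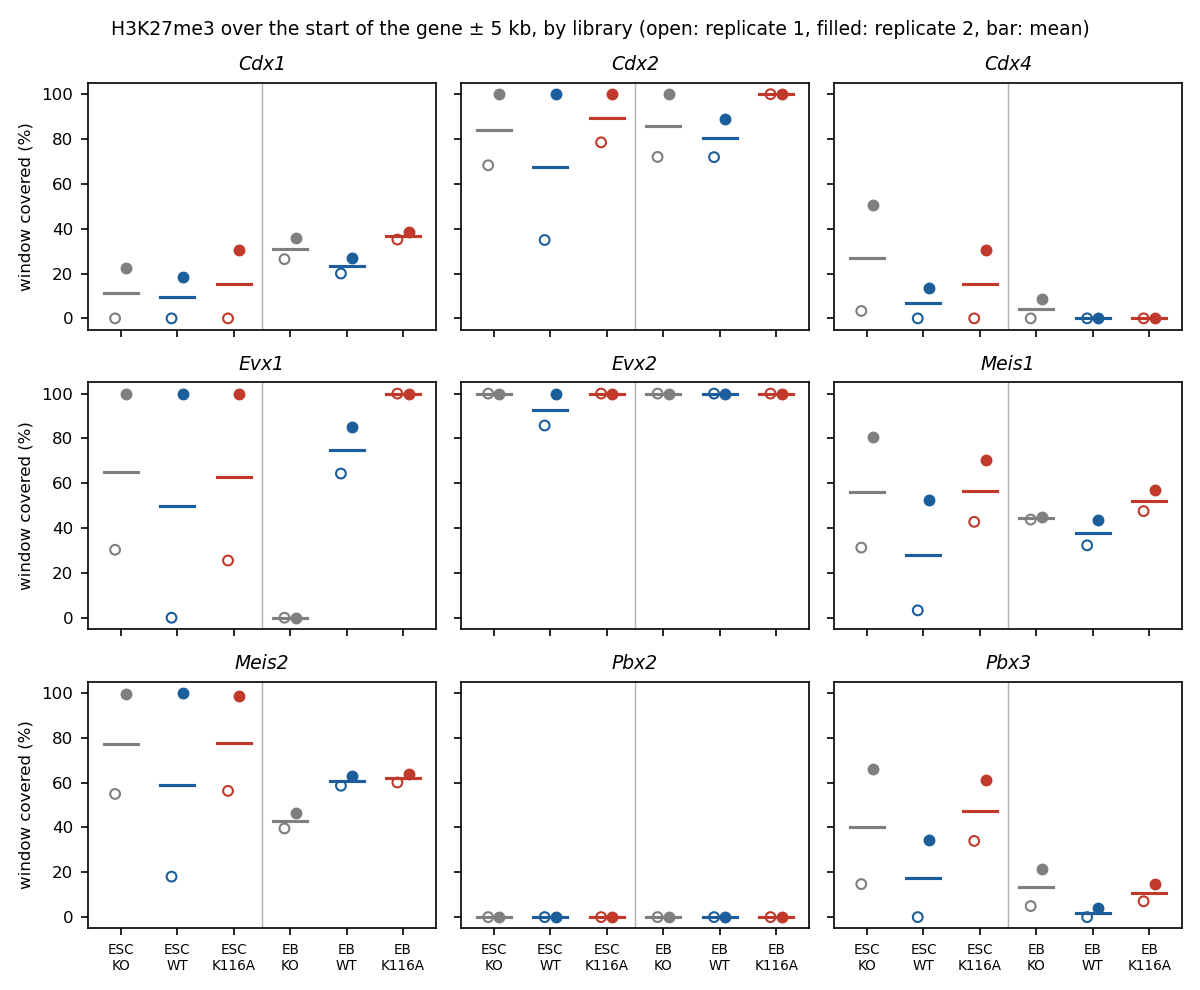
Percent of the window of 5 kb on each side of the start of the gene covered by H3K27me3 peaks, for the 9 genes (panels) and 6 groups (x axis), with open circles for replicate 1, filled circles for replicate 2 and bars for the mean. Evx2 is at 100 in 11 of 12 libraries, Pbx2 at 0 in all 12, and Evx1 at 0 in both EB KO libraries.

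The Cdx genes differed among themselves. Cdx2 was covered in all 12 libraries, over 35.0 to 100% of the window in ESC and 71.9 to 100% in EB. Cdx1 was covered in 3 of 6 ESC libraries, with 0 and 22.3% in KO, 0 and 18.6% in WT and 0 and 30.7% in K116A for replicates 1 and 2. In EB it was covered in all 6, with 26.4 and 35.8% in KO, 20.0 and 26.7% in WT and 35.2 and 38.5% in K116A. Within each line, both EB libraries were thus above both ESC libraries at Cdx1, a pattern shared by 811 of the 6747 genes tested (12%). At Cdx4 the coverage in ESC was 3.30 and 50.6% in KO, 0 and 13.4% in WT and 0 and 30.7% in K116A. In EB, Cdx4 was covered only in replicate 2 of KO, over 8.58%. The 2 stages overlapped at Cdx4, since replicate 1 of ESC WT and of ESC K116A was also at 0.

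Evx2, at the HoxD cluster, was covered over the whole window in 11 of 12 libraries and over 85.8% in replicate 1 of ESC WT. A gain of coverage in EB could be measured only against that library. In EB, Evx2 lay in single peaks of 66.2 to 74.1 kb, which also covered Hoxd13. Evx1, at the HoxA cluster, was variable. In ESC its coverage was 30.3 and 100% in KO, 0 and 100% in WT and 25.5 and 100% in K116A for replicates 1 and 2. In EB it was 0% in both KO libraries, 64.3 and 85.2% in WT and 100% in both K116A libraries. No H3K27me3 peak was listed within 5 kb of the Evx1 gene in EB KO, while EB K116A had peaks of 17.7 and 18.0 kb there. Hoxa13, whose start is 52.6 kb away, was covered over 85.0 and 100% of its window in the same EB KO libraries.

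**Figure D4:**
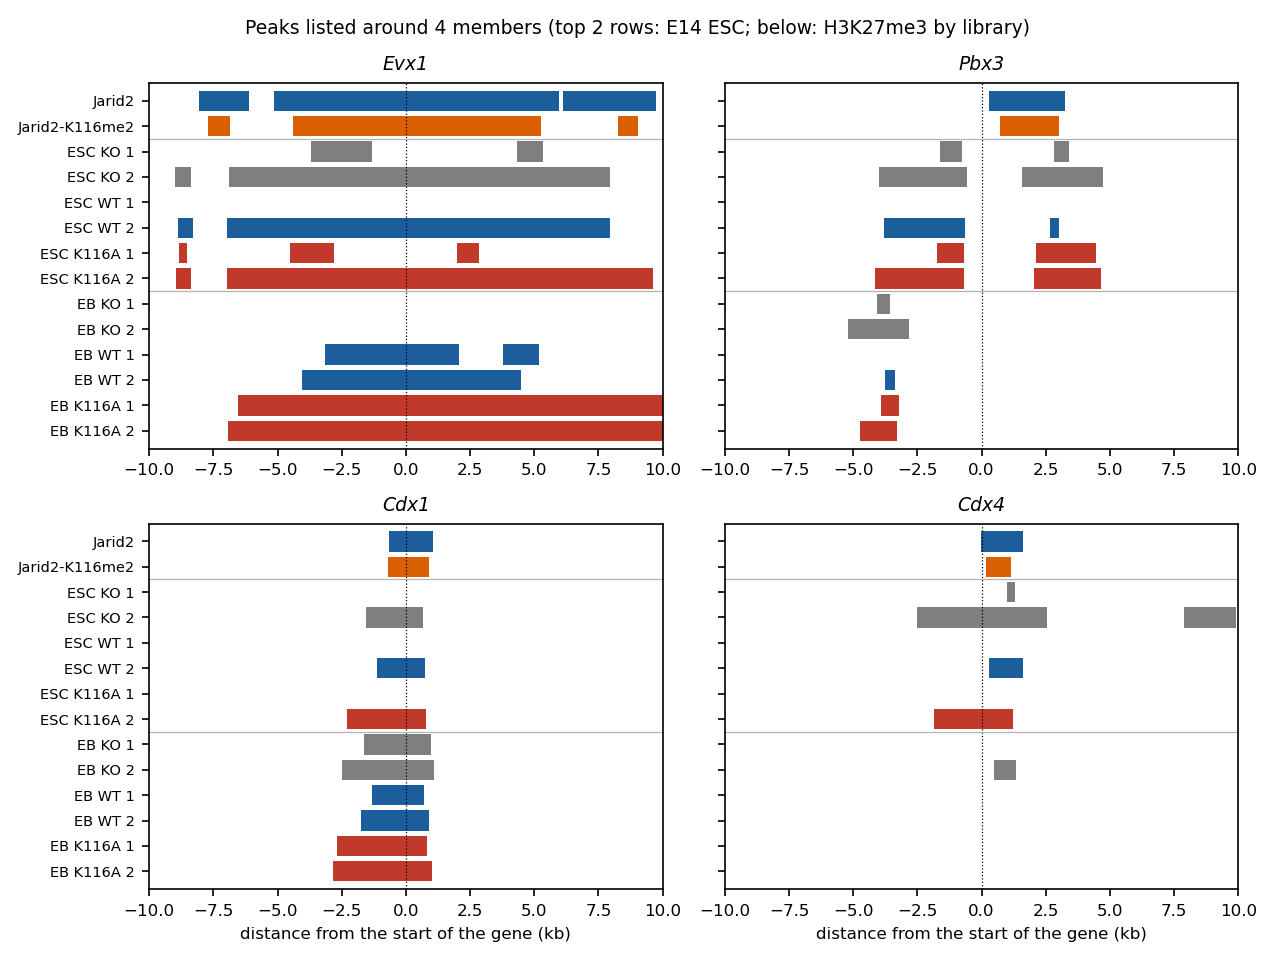
Listed peaks around Evx1, Pbx3, Cdx1 and Cdx4 against the distance from the start of the gene in kb. The top rows are Jarid2 and Jarid2-K116me2 in E14 ESC and the rows below are H3K27me3 in the 12 libraries. Evx1 has no peak in EB KO, the Pbx3 peaks in EB lie outside the Jarid2 peak, Cdx1 has a peak in every EB library and Cdx4 in 1 of them.

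Evx1 was among 3 genes, with Cxxc4 and Tbx3, that had no coverage in both EB KO libraries and at least 50% in the other 4 EB libraries (0.0445% of 6747 genes). This pattern, and with it the other 2 genes, was chosen after the values of Evx1 were seen. The Evx1 peaks of EB WT were weak, with highest scores of 44.5 and 43.1 where the median scores of those lists were 46.9 and 44.8, and those of EB K116A scored 84.8 and 99.0. With peaks of a score of at least 50 only, Evx1 was covered in EB only in K116A, and the difference of KO from WT was 0.

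The Meis genes had H3K27me3 in both stages. Meis1 was covered in all 12 libraries, over 3.29 to 80.8% of the window in ESC and 32.3 to 56.9% in EB. Meis2 was covered over 18.1 to 100% in ESC and 39.6 to 63.7% in EB. The 2 stages overlapped at both genes. In EB, Meis2 was covered over 39.6 and 46.4% in KO, 58.6 and 62.8% in WT and 60.1 and 63.7% in K116A. How many of all genes were likewise lowest in EB KO was not counted. In the limma fit described below, KO against WT did not pass at Meis2 in EB (adjusted p = 0.84). Among the 3 replicates 2 of ESC, Meis2 was at 98.8 to 100%.

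At Pbx3, the mean coverage of each line was lower in EB, and the peaks that remained lay upstream of the start. In ESC the window was covered over 14.7 and 65.9% in KO, 0 and 34.6% in WT and 34.0 and 61.0% in K116A. In EB it was covered over 4.92 and 21.6% in KO, 0 and 3.97% in WT and 7.05 and 14.8% in K116A. The stages overlapped in KO and in WT. In K116A both EB libraries were below both ESC libraries, a pattern whose share among all genes was not counted. The K116A difference at Pbx3 did not pass in the limma fit described below (adjusted p = 0.38), where 1.85% of genes did. Of the Pbx3 Jarid2 peak itself, 10.8 to 56.2% was covered in 5 of the ESC libraries and 0% in replicate 1 of ESC WT. In all 6 EB libraries 0% of that peak was covered, and the remaining H3K27me3 lay at least 2.84 kb upstream of the start. An uncovered Jarid2 peak was common in EB. Of all Jarid2 peaks, H3K27me3 touched between 53.9% (replicate 1 of EB WT) and 67.3% (replicate 2 of EB K116A). How many were touched in ESC but not in EB, like that of Pbx3, was not counted. At Cdx1, by comparison, 78.1 to 100% of the Jarid2 peak was covered in EB.

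Coverage of the start itself was compared between the upstream genes and the cofactors as a description, without a test. In EB, the start itself was inside an H3K27me3 peak for 3 or 4 of the 5 Cdx and Evx genes in every library and for none of the 4 Meis and Pbx genes. Among genes with a peak in the window, this was 3 or 4 of 3 or 4 Cdx and Evx genes and none of 2 or 3 Meis and Pbx genes. In the same libraries 32.3 to 40.8% of all genes with a peak in the window had their start covered. The 2 or 3 Meis and Pbx genes are too few to be set against that share. Jarid2 peaks of E14 ESC, in contrast, covered the start of all 5 Cdx and Evx genes and of Meis1 and Meis2. In ESC, replicate 2 had the start of Meis1 covered in KO and WT and that of Meis2 in all 3 lines. The mean coverage of the 5 Cdx and Evx genes was above that of the 4 Meis and Pbx genes in each of the 12 libraries, at 24.1 to 74.6% against 5.34 to 61.6% in ESC and 39.7 to 67.7% against 22.1 to 33.8% in EB. Pbx2, at 0, is part of the cofactor mean, and the order in ESC depended on it. In replicate 2 of ESC KO, Meis1, Meis2 and Pbx3 were at 80.8, 99.6 and 65.9%, on average above the Cdx and Evx mean of 74.6%. Without Pbx2 the order was also reversed in both ESC K116A libraries, and it held in the other ESC libraries and in EB. Evx2, at 85.8 to 100% in all 12 libraries, is part of the Cdx and Evx mean. With Evx2 left out as well, the order held only in EB WT, EB K116A and replicate 1 of ESC WT. In replicate 1 of EB KO, Cdx1, Cdx2, Cdx4 and Evx1 were then at 26.4, 72.0, 0 and 0%. Meis1, Meis2 and Pbx3 were at 43.8, 39.6 and 4.92% in that library, on average higher.

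Whether these differences exceeded the spread of replicates was tested with limma over the 6747 genes covered in at least 2 libraries, and a gene passed at an adjusted p under 0.05. Pbx2 was not among them, and the other 8 were. Over the 3 lines, 1687 genes differed between EB and ESC (25.0%), 1630 higher and 57 lower, and none of the 8 was among them. The median gene was 7.10 percentage points higher in EB. With quantile normalization, which removes this shift, the split was 1109 higher and 892 lower. The largest differences of the members were those of Pbx3 and Cdx1. The difference of EB from ESC was −26.3 points at Pbx3 (SE 10.2, adjusted p = 0.085) and 18.5 points at Cdx1 (SE 7.18, adjusted p = 0.085). Cdx4 differed by −14.9 points (SE 8.20, adjusted p = 0.19) and Meis2 by −16.1 points (SE 15.4, adjusted p = 0.42). For Cdx2, Evx1, Evx2 and Meis1 the differences lay between −1.98 and 8.55 points, with adjusted p from 0.62 to 0.97.

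**Figure D5:**
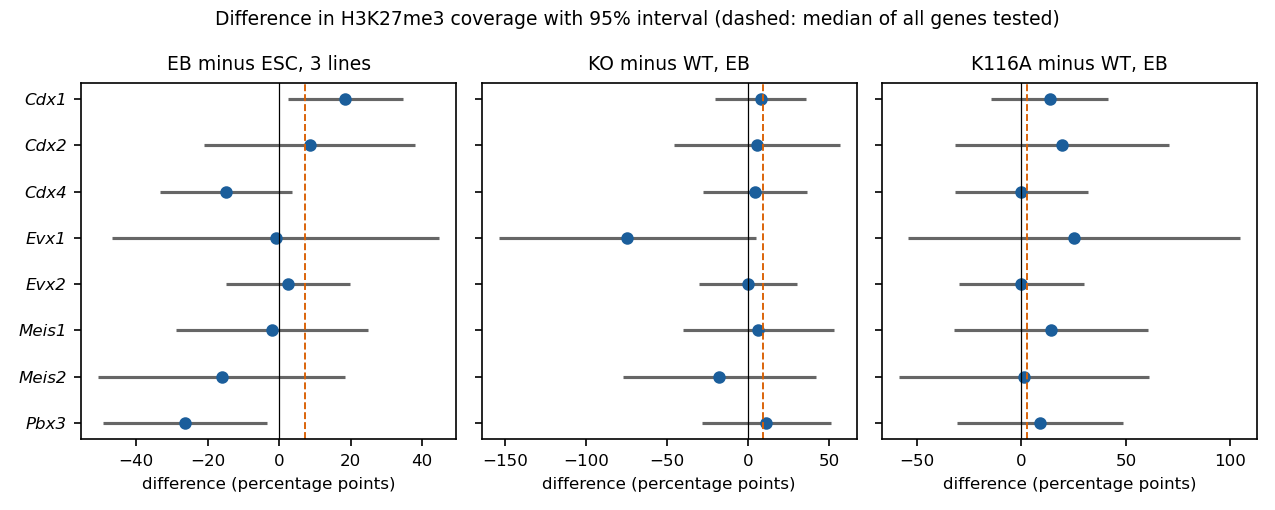
Difference in percent of the window covered (points) with its 95% interval from limma for the 8 genes tested, for EB minus ESC over 3 lines, KO minus WT in EB and K116A minus WT in EB. The dashed line is the median of all genes tested. The intervals of Cdx1 and Pbx3 leave out 0 in the left panel, and their adjusted p is 0.085.

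These calls moved with the scaling. With quantile normalization Pbx3, Meis2, Meis1 and Cdx4 passed as lower in EB, at −34.0, −38.0, −22.3 and −17.6 points. Cdx1 passed with peaks of a score of at least 50, at 26.7 points, and Pbx3 passed with a window of 2.5 kb on each side, at −31.0 points. At equal called length, with the highest-scoring peaks of each library kept up to the same total length and replicate 1 of ESC WT left out, Meis2 passed at −64.0 points and Pbx3, at −8.12 points, did not. Without replicate 1 of ESC KO, Pbx3 and Cdx4 passed, at −34.9 and −22.8 points, and without replicate 2 of ESC KO, Cdx1 passed, at 22.2 points. The direction was the same in all 22 alternatives for Pbx3 and Meis2 and in all 21 that could be fitted for Cdx1 and Cdx4. It was the same in 18 of 22 for Cdx2, 17 of 22 for Evx1 and 14 of 22 for Meis1. For Evx2 it was not reversed in 21 of 22. Among these, the Evx2 difference was 0 with a window of 2.5 kb on each side, at equal called length, without replicate 1 of ESC WT and with replicates 2 only.

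Within lines, no member passed in KO, where 23.2% of genes did, in WT, where 0.0% did (359 genes at an unadjusted p under 0.05), or in K116A, where 1.85% did. In ESC, no gene differed between KO and WT (0.0%, 18 genes at an unadjusted p under 0.05) or between K116A and WT (0.0%, 35 genes). Single libraries moved these counts: 114 genes passed between KO and WT without replicate 1 of ESC KO and 73 without replicate 2 of ESC WT, and 77 passed between K116A and WT without replicate 2 of ESC WT. The differences of the members in ESC were between 1.81 and 30.2 points, all in the direction of more coverage in KO and K116A, where WT includes the short list. In EB, no member passed between KO and WT (17.7% of genes, 1183 of 1197 higher in KO) or between K116A and WT (0.919%).

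The largest difference of a member was that of Evx1 in EB, −74.8 points in KO against WT (SE 35.3, adjusted p = 0.20) and 100 points in K116A against KO (SE 35.3, adjusted p = 0.091). The latter comparison was added after the values were seen, and 16.1% of genes passed it. The SE pooled the replicates of ESC, which were far apart at Evx1. With the 6 EB libraries alone, a fit also added later, both differences passed, with SE 8.01 and adjusted p = 0.018 for KO against WT, where 14.9% of 5839 genes passed, and adjusted p = 0.013 for K116A against KO, where 16.6% did. In that fit Meis2 differed by −17.7 points in KO against WT (SE 4.82, adjusted p = 0.077). The difference of K116A from WT at Evx1, 25.2 points, did not pass (adjusted p = 1.0, and 0.20 with EB libraries alone). The change from ESC to EB differed between KO and WT in 4.68% of genes and between K116A and WT in 0.0% (271 genes at an unadjusted p under 0.05), without a member. At Evx1 it differed by −89.9 points between KO and WT (adjusted p = 0.46).

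The other genes of the pathway were examined as lists. All 40 Hox gene records (39 genes) had Jarid2 and Jarid2-K116me2 peaks, as did the 6 other ParaHox and neighbouring homeobox genes examined, such as Pdx1 and Gsx1 beside Cdx2. Among other TALE genes, Pknox2 had them, and Pbx4, Meis3, Pknox1, Tgif1 and Tgif2 had none. No Hox or ParaHox gene passed between EB and ESC over the 3 lines, with a median difference of 9.80 points for Hox. The median Hox coverage was already 100% in replicate 2 of each ESC line and in every EB library. A gain from ESC to EB could therefore hardly be measured at the Hox genes. Of 8 genes for signals upstream of Cdx, 6 had Jarid2 peaks and 4 of 7 tested passed. Wnt3a and Fgf4, ligands of the Wnt and Fgf pathways, were higher in EB by 33.8 points (SE 9.41, adjusted p = 0.030) and 49.0 points (SE 6.20, adjusted p = 0.0034). Wnt3 and Fgf8 were lower in EB over the 3 lines, with differences of −36.1 points (SE 10.9, adjusted p = 0.040) and −27.1 points (SE 7.90, adjusted p = 0.035). At Fgf8 the 2 stages overlapped in WT. Fgf8 and Wnt3a were named after their values were seen. Wnt3 and Wnt3a each lost the call in 9 of the 12 fits that left out 1 library, and Fgf8 lost it in 8. At equal called length, Fgf4 (24.8 points, adjusted p = 0.080) and Wnt3 (−14.1 points, adjusted p = 0.20) lost the call too, while Fgf8 was at −82.2 points (adjusted p = 0.00037). With a window of 2.5 kb on each side, Wnt3a was at 10.8 points (adjusted p = 0.37).

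Fgf8, which acts upstream of Cdx in the posterior embryo, was also lowest in KO in EB. In ESC it was covered over 79.6 and 84.5% in KO, 64.0 and 84.0% in WT and 77.6 and 83.7% in K116A. Both EB libraries were below both ESC libraries in KO and in K116A but not in WT. The share of all genes with this pattern was not counted. In EB it was covered over 11.2 and 14.1% in KO, 72.4 and 79.7% in WT and 61.3 and 72.3% in K116A. KO differed from WT by −63.3 points (SE 13.7, adjusted p = 0.012), and the adjusted p was 0.061 to 0.16 when either EB KO or either EB WT library was left out. At equal called length that difference was 0. Of 9 genes of the ESC state, 2 had Jarid2 peaks, and Klf4 was higher in EB by 54.0 points (SE 6.34, adjusted p = 0.0026). At equal called length Klf4 was at 4.52 points and did not pass (adjusted p = 0.41). With replicates 2 only it was at 61.8 points (adjusted p = 0.13).

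The genes most like each class in coverage over the 12 libraries were, for the Cdx and Evx mean, Efhd1 (Pearson r = 0.95), Susd5 (0.949) and Prokr2 (0.949). For the Meis and Pbx mean they were Gm1614 (0.981), 1110028C15Rik (0.972) and Prox1 (0.972). All lay over 1 Mb from the 9 genes, and the libraries they share differ in how much was called.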

How the data were processed

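ChIP-seq peak lists of 14 libraries were analysed: Jarid2 and Jarid2-K116me2 in E14 ESC (1 library each) and H3K27me3 in 6 groups of 2 libraries. The inputs, 2 samples, were not used here. Per the study's methods and the submitters' processing notes, the authors mapped reads to mm9 with Bowtie2 2.1.0, called Jarid2 peaks with MACS 1.4.2 and broad H3K27me3 peaks with MACS2 2.0.10. The deposited lists give position and score; the Jarid2 score is −10 times the log10 of the p-value, and the statistic behind the H3K27me3 score is not given in the sources used here. Peaks were called in each library separately. The lists hold no read numbers. The read totals that the study gives for each library were used only to compare the depth of the Jarid2 and Jarid2-K116me2 libraries, and no counting interval is given.

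The planned quantity, fold enrichment in the window, is not part of the lists used, so coverage was used in its place: the percent of bases within 5 kb of the start of the gene (the 5′ end of its GENCODE record on NCBIM37) inside H3K27me3 peaks. Genes covered in at least 2 of 12 libraries (6747) were fitted with limma 3.58.1 (R 4.3.3) over 6 groups, with a trend and robust moderation, and p-values were adjusted by Benjamini-Hochberg over all of them, with a threshold of 0.05. In a test on simulated data for EB against ESC, 101 of 200 genes (50.5%) changed by 40 points among 6747 were recovered, with 8 false calls. Replicates are biological according to the study's methods, and p-values cover the spread between these samples only. Peak positions were taken with starts counted from 0 and are printed from 1. Sequences were read from NCBIM37 (mm9), and some items are not reported here. The gene list was given, and members and other lists were chosen with earlier results of these data known. Named genes are the 9 members, the 3 genes of the other lists with the largest EB-ESC difference past the threshold, and the 3 genes most like each class mean. Other genes in the text are neighbours or list members given as context, or were chosen after their values were seen (Fgf8, Wnt3a, Cxxc4, Tbx3). Other windows, thresholds, normalizations, weights and sample sets were tried as alternatives.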

Additional observations from a re-analysis of the deposited data

How the results depend on the processing

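The 8 genes with a Jarid2 peak and the 8 with a Jarid2-K116me2 peak stayed at these counts in all 10 alternatives. Shared Jarid2 peaks fell from 13 to 8 when an overlap of at least 50% of each peak was required. The number of the 8 genes passing between EB and ESC over the 3 lines, 0 as reported, was 4 with quantile normalization, 2 with the replicate block (Pbx3, adjusted p = 0.013, and Cdx1, adjusted p = 0.015), 1 with a window of 2.5 kb on each side, 1 with scores of at least 50, 1 at equal called length (Meis2), and 0 to 2 when 1 library was left out. For EB against ESC in KO it was 3 with quantile normalization, 1 at equal called length and 0 to 1 when 1 library was left out, and in K116A it was 2 with quantile normalization. In EB, 1 passed between KO and WT with quantile normalization (Meis2) and 1 with EB libraries only (Evx1). Between K116A and KO, 1 (Evx1) passed with quantile normalization, with the replicate block, with the score in the window and with EB libraries only. No member passed in the other comparisons under any alternative.

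All genes passing between EB and ESC, 1687, were 2748 with the replicate block, 936 with the narrower window, 919 with scores of at least 50, 444 at equal called length (201 higher, 243 lower), 0 with replicates 2 only (1407 at an unadjusted p under 0.05) and 774 to 2032 when 1 library was left out. Those passing between KO and WT in EB, 1197, were 491 with quantile normalization, 655 with the narrower window, 615 with scores of at least 50, 188 at equal called length and 277 to 1272 when 1 library was left out. Counts ranged over all alternatives from 263 to 2244 in KO (1563), 1 to 493 in K116A (125) and 0 to 134 in WT (0) for EB against ESC, from 0 to 114 for KO against WT (0) and 0 to 77 for K116A against WT (0) in ESC, from 0 to 519 for K116A against WT in EB (62), and from 0 to 594 for the change in KO minus that in WT (316).

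The EB-ESC difference changed sign at Cdx2 with quantile normalization (−10.5 points), equal called length (−2.29) and replicates 2 only (−3.62), at Evx2 with quantile normalization (−4.46), and at Evx1 with the narrower window (9.60). At Meis1 it did so with the narrower window (1.10), the whole gene with 5 kb on each side (3.28), scores of at least 50 (5.21), the score in the window (0.84 on the log2 scale) and equal called length (1.89). When 1 library was left out it ranged from −2.29 to 19.4 at Cdx2, −17.7 to 15.6 at Evx1 and −10.2 to 6.26 at Meis1. The causes were not tested.

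Scores of at least 50, the score in the window (log2 of 1 plus its mean), equal called length and EB libraries only were chosen after seeing the data. The planned threshold on q and the planned fold enrichment were not run, since the lists used do not hold them. Whether replicate numbers pair the samples could not be decided. The deviations of replicates 2 from their group means correlated over genes at −0.009 to 0.70 (median 0.095) over 15 pairs of groups, with 2 numbers only. Such a correlation cannot show a shift shared by all genes, and replicate 1 had the shorter list in every group. The lists give no read numbers or signal levels, so a gene without a peak may still carry a signal too weak to be called.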
